A study of Mus musculus with 2 samples.

Results

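Collagen genes were described in RNA of whole spleen tissue, taken at 8 weeks of age from adult mice of the inbred C57BL/6J strain. The family was taken as every protein-coding gene whose symbol is Col, a number, the letter a and a number, which gave 44 of the 43346 genes in the deposited tables. Of these, 11 encode fibrillar chains, 6 encode the type IV chains of basement membranes and 27 encode other collagens. The 2 samples, library 1 and library 2, are biological replicates of a single group, so no conditions were compared. Both were made from poly(A) RNA over 200 nucleotides long after depletion of ribosomal RNA, and both were read from either end for 76 nucleotides with the strand kept. The labels describe littermates of both sexes, leave the sex unrecorded, name the same donor for both samples and do not state from which animals each library came. SDs therefore cover the difference between these samples alone, and that difference may be technical.

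Collagens are trimers, most of them secreted and some membrane-spanning. Their chains wind into a triple helix, which needs a glycine at regular steps along each chain. Fibrillar collagens of types I, III and V build the tensile fibres of capsule and trabeculae, while type IV forms the sheet-like network under endothelium. In the spleen, fibroblastic reticular cells wrap such fibres and basement membrane components into the reticular framework on which lymphocytes and macrophages sit.

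The libraries held 49686344 and 51393345 expected counts, which are estimated numbers of reads assigned to genes. Levels are given as TPM, an estimate of relative transcript abundance corrected for transcript length. Of the markers checked against the spleen label, all 5 B cell genes and 4 of 5 spleen patterning genes reached 1 TPM in both libraries. Enzymes of the exocrine pancreas were also abundant, with 9 genes summing to 85215 TPM in library 1 and 66596 in library 2. Ctrb1 alone stood at 36979 and 21059 TPM, while by scaled counts 7 of the 9 were higher in library 2 and 2 in library 1 (median log2 ratio 0.17). The part of pancreatic tissue in the collagen levels was not tested.

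The repeat that defines the family can be read in the coding exons of the main fibrillar genes, which are shown because whole exons there hold nothing but the repeat. Each stretch below runs 5′ to 3′ on the coding strand of GRCm38, with the glycine codon that opens each repeat unit in capitals. Col1a1 exon 34 lies at chr11:94946574-94946627 and Col1a2 exon 34 at chr6:4530172-4530225, both on the plus strand and numbered among coding exons. Col3a1 exon 32 lies at chr1:45337958-45338011 on the plus strand. The Col4a1 stretch, at chr8:11217543-11217972 on the minus strand, joins exons across an intron. With units counted 5′ to 3′, it shows a break of 2 codons in the repeat.
Col1a1 exon 34: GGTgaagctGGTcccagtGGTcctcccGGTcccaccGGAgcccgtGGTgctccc
Col1a2 exon 34: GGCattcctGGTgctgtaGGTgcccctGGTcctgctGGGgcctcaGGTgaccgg
Col3a1 exon 32: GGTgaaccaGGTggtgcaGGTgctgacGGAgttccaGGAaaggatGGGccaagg
Col4a1 interruption: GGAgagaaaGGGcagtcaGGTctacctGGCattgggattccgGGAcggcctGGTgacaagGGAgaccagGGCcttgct
The 3 fibrillar exons are 54 bases long, so each holds whole repeat units of 9 bases. At the Col4a1 break the lower-case run between capitals is longer, but it holds a further glycine codon, ggg. That codon closes the last unit before the break as counted here. Counted from it instead, the next capital follows at the usual step, and the break is a unit cut short.

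Exon and repeat structure separated the fibrillar genes from type IV. Among internal coding exons of the fibrillar genes, 305 of 627 (48.6%) were exactly 54 bases long. The same length was found for 12 of 284 (4.23%) exons of type IV genes and 152 of 1005 (15.1%) of the other collagens that had internal coding exons. The pooled share of the others hides fibril-associated genes with shares like those of the fibrillar group, namely Col9a2 and Col9a3 (46.7% each), Col22a1 (45.9%) and Col9a1 (38.9%), which were picked out after their values were seen. Over all protein-coding genes the share was 0.74%. Exon lengths divisible by 9 made up 83.9% in the fibrillar group, 47.2% in type IV and 14.3% over all protein-coding genes. The longest unbroken run of glycine codons at this spacing had a median of 338 repeat units in the 11 fibrillar genes, with a range of 216 to 344. In type IV genes the longest run was 39 to 66 units, and each gene held 22 to 27 separate runs. Col24a1 and Col27a1, fibrillar chains with a shorter helix, had the lowest fibrillar values, at 216 and 217 units. Their repeat is broken, and over all 3 runs of each gene they held 327 and 329 units, nearer to the 353 of Col1a2. These are properties of the annotation, not of the libraries.

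**Figure D1:**
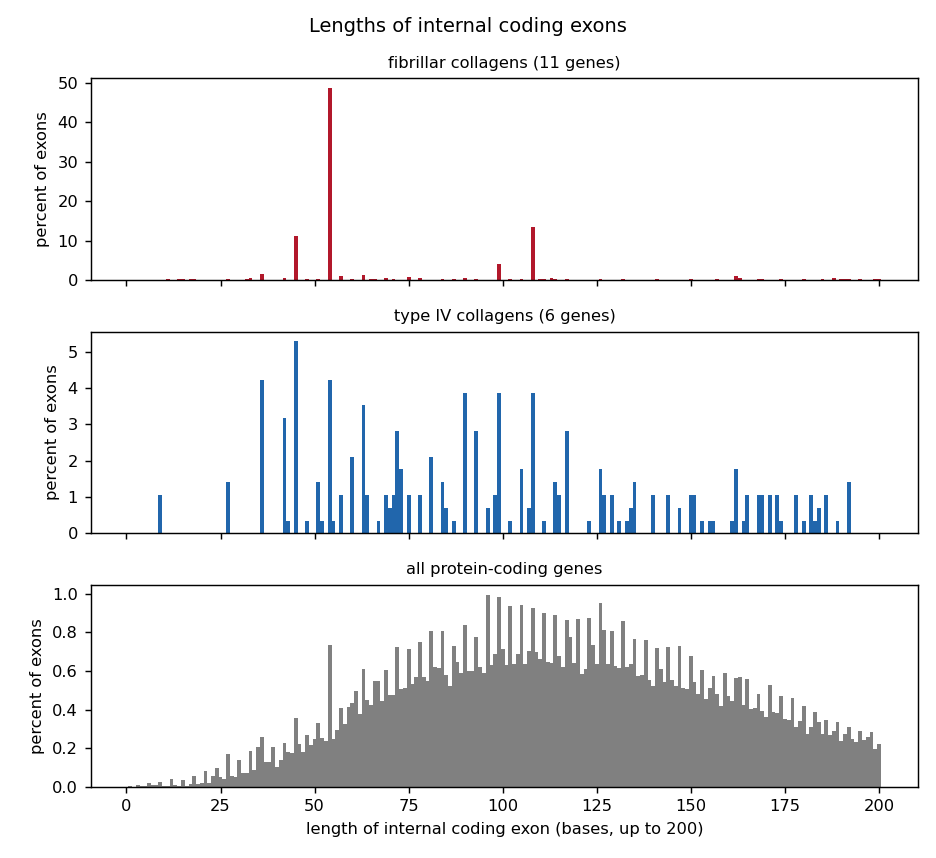
Share of internal coding exons (y axis, percent of exons) at each length up to 200 bases (x axis) in fibrillar genes, type IV genes and all protein-coding genes, each panel with its own y scale. The fibrillar genes show a single tall bar at 54 bases (48.6%), which type IV genes (4.23%) do not.

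Of the 44 collagen genes, 25 reached 1 TPM in both libraries, a share of 56.8% that sat beside 53.9% of all 21474 protein-coding genes. The detected genes were 8 of 11 fibrillar, 2 of 6 type IV and 15 of 27 other members. Only 9 members had a mean of 10 TPM or more, and the other 16 detected ones lay between 1 and 10 TPM. Collagen transcripts summed to 287 TPM in library 1 and 298 in library 2, or 0.0296% ± 0.000923 (SD, n = 2) of all gene TPM. The 5 highest genes held 58.4% of that sum in library 1 and 59.9% in library 2. Fibrillar genes took 32.3% of collagen TPM in library 1 and 39.4% in library 2, while type IV genes took 28.8% and 24.3%. The other collagens took 38.9% and 36.4%. Fibrillar transcripts thus held the larger share in library 2, and type IV and the others the larger share in library 1. In bulk RNA, fewer cells of a type and less RNA per cell cannot be told apart in any of these levels.

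**Figure D2:**
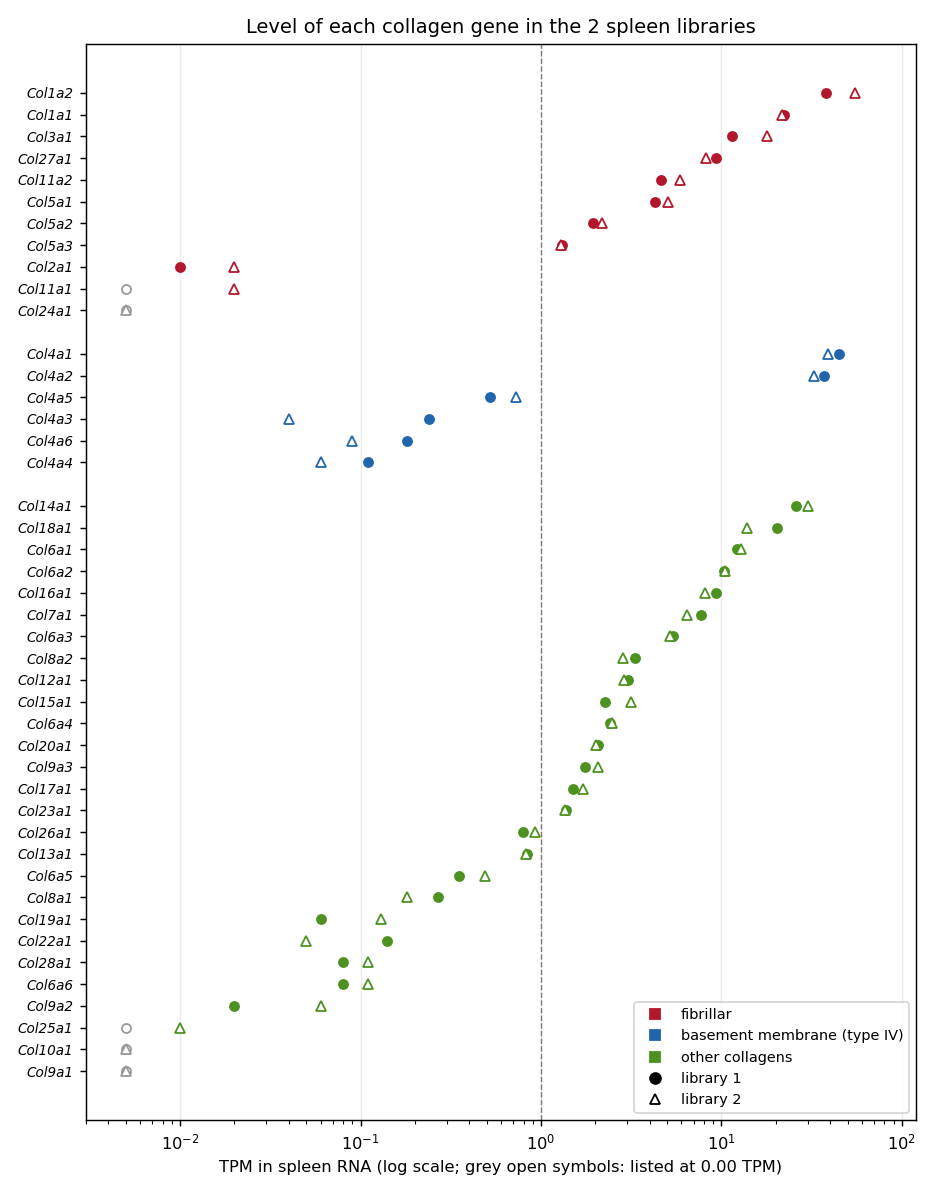
TPM of all 44 collagen genes on a log x axis, ordered by mean level within the 3 groups, with filled circles for library 1 and open triangles for library 2. Col1a2, Col4a1 and Col4a2 stand highest, the dashed line marks 1 TPM, and grey symbols mark genes listed at 0.00 TPM.

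Type I collagen is the main fibre-forming collagen of most connective tissue, a trimer of alpha 1 and alpha 2 chains. Col1a2 (ENSMUSG00000029661, chromosome 6, 4504814 to 4541544, plus strand), the alpha 2 chain, stood at 37.7 TPM in library 1 and 55.1 in library 2, a mean of 46.4 ± 12.3 TPM (SD, n = 2). Col1a1 (ENSMUSG00000001506, chromosome 11, 94936224 to 94953042, plus strand), the alpha 1 chain, stood at 22.3 TPM and 21.8 TPM (22.0 ± 0.368 TPM). The alpha 2 gene was the higher in both libraries although the common trimer holds more alpha 1 than alpha 2. The ratio of Col1a1 to Col1a2 TPM was 0.591 in library 1 and 0.395 in library 2, and neither library brought it to 1. Col3a1 (ENSMUSG00000026043, chromosome 1, 45311538 to 45349706, plus strand), whose homotrimer is the reticular fibre collagen, stood at 11.4 TPM in library 1 and 17.8 in library 2 (14.6 ± 4.56 TPM). Its level was 0.511 of Col1a1 in library 1 and 0.819 in library 2, so the type III transcript stayed below each type I transcript in both.

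The minor fibrillar genes were present at lower levels. Col5a1 and Col5a2, chains of the type V collagen that starts fibril assembly, stood at 4.28 and 5.03 TPM and at 1.93 and 2.18 TPM in libraries 1 and 2. Their ratio was 2.22 and 2.31. Col5a3, a further type V chain, stood at 1.30 and 1.29 TPM. Col27a1, the fibrillar chain with the shorter helix that was detected, stood at 9.28 and 8.25 TPM. Col11a2, best known from cartilage fibrils, reached 4.60 and 5.88 TPM. The other cartilage fibril genes did not accompany it at comparable levels. Col2a1, the main cartilage collagen, had 3 and 6 counts (0.01 and 0.02 TPM), and Col11a1 had 1 and 4 counts. None of 8 cartilage and bone markers reached 1 TPM in both libraries, their sum was 2.10 TPM in library 1 and 1.57 in library 2, and Ibsp was at 0 counts in both. Col24a1 had 0 counts in library 1 and 1 in library 2.

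Type IV expression rested on a single pair of genes. Col4a1 (ENSMUSG00000031502, chromosome 8, 11198423 to 11312826, minus strand), the alpha 1 chain, stood at 44.7 TPM in library 1 and 39.0 in library 2 (41.8 ± 4.0 TPM). Col4a2 (ENSMUSG00000031503, chromosome 8, 11312805 to 11449287, plus strand), the alpha 2 chain that joins it in the ubiquitous type IV trimer, stood at 36.8 and 32.4 TPM (34.6 ± 3.14 TPM). Both were higher in library 1, and their ratio was 1.21 in library 1 and 1.20 in library 2. Of the 6 chain ratios computed, this pair had the smallest SD, 0.00603.

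The 4 remaining type IV genes, which form the trimers of specialised basement membranes such as that of the kidney glomerulus, were all below 1 TPM. Col4a5 stood at 0.52 and 0.73 TPM from 109 and 181 counts, and Col4a6 at 0.18 and 0.09 TPM from 56 and 29 counts. Col4a4 had 54 counts in library 1 and 31 in library 2, which is 0.11 and 0.06 TPM. Col4a3 had 16 counts in each library, yet its TPM was 0.24 in library 1 and 0.04 in library 2. In library 1 a partial transcript of 627 bases held 87.5% of that TPM from 4.27 counts, and in library 2 it held none. The counts were thus equal while the gene TPM was not.

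The type IV genes lie in head-to-head pairs, and the pairs differed in how alike their members were. The annotated starts of Col4a1 and Col4a2 are 21 bases apart on opposite strands, and the genes overlap by 22 bases. The sources used here do not say whether the authors' counting used the strand, and reads within so short an overlap could be assigned to either gene. Col4a3 and Col4a4 start 72 bases apart on chromosome 1, and Col4a5 and Col4a6 start 1309 bases apart on chromosome X. In the first pair both genes had similar levels and log2 ratios of -0.09 and -0.07 between libraries. In the second pair the log2 ratio was -0.02 for Col4a3, at 16 counts in each library. It was -0.78 for Col4a4, at 54 and 31 counts. In the X-linked pair Col4a5 was higher in library 2 (log2 ratio 0.70) and Col4a6 higher in library 1 (log2 ratio -0.92), the latter at under 100 counts in total.

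The windows at the starts of Col4a1 and Col4a2 are shown because they overlap. As these genes overlap too, the bases before each start lie within the annotated span of the other gene. The windows of Col1a2 and Col18a1 are shown because transcripts with different starts are described for these genes below. Each window is from RefSeq on GRCm38.p6, covers 250 bases before to 50 bases after a start, and is written 5′ to 3′ on the strand of its gene. Capitals mark matches on either strand, so that a match on the other strand is printed as the reverse complement. The GC box was searched as GGGCGG. The box bound by the factor NF-Y was searched by its name letters, CCAAT. The TATA box was searched as TATAAA. Col4a1 is chr8:11312777-11313076 (minus), Col4a2 is chr8:11312555-11312854 (plus), Col1a2 is chr6:4505368-4505667 (plus) and Col18a1 is chr10:77166481-77166780 (minus).
Col4a1: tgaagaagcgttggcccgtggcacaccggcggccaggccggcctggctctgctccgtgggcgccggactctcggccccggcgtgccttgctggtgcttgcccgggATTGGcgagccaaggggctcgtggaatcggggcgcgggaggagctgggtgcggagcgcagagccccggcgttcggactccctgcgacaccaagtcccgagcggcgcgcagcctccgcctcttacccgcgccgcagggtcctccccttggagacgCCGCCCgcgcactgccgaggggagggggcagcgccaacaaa
Col4a2: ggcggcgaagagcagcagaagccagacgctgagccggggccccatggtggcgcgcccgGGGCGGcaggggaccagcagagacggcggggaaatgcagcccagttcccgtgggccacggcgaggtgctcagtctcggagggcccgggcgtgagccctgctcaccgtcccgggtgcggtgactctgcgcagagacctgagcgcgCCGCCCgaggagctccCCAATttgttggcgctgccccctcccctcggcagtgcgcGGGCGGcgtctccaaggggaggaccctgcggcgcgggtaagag
Col1a2: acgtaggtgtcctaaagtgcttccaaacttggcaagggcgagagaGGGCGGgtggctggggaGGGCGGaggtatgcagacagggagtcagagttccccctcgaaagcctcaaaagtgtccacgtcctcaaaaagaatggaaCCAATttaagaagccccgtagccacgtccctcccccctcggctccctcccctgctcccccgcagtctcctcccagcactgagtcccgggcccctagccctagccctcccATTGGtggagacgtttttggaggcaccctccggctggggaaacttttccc
Col18a1: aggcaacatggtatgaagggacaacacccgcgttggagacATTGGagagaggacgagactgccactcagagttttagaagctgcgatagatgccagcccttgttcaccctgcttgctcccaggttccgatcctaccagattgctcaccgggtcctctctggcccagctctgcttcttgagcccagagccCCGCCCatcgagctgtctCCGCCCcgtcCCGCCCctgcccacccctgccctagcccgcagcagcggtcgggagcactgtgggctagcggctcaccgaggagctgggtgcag
The Col4a1 and Col4a2 windows share 78 bases and held no TATAAA. Col4a2 held 3 GC boxes and 1 CCAAT box, Col4a1 held 1 of each, and 1 of these GC boxes is the same bases read from either side. Col1a2 held 2 GC and 2 CCAAT boxes, and Col18a1 held 3 GC boxes and 1 CCAAT box. RefSeq windows were found for 35 of the 44 members, 38 windows in all, and Col1a1 was among the 9 without one. GGGCGG occurred in 23 of the 38 windows (60.5%) and in 35.7% of all 32851 windows. CCAAT occurred in 34.2% of the members' windows and 37.4% of all, and TATAAA in 13.2% and 13.6%. A match is a description of these letters only.

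Among collagens that bind fibril surfaces, Col14a1 (ENSMUSG00000022371, chromosome 15, 55307750 to 55520803, plus strand) led with 26.0 TPM in library 1 and 30.1 in library 2 (28.0 ± 2.94 TPM). Col16a1 stood at 9.29 and 8.15 TPM, and Col12a1, a close relative of Col14a1, at 3.03 and 2.87 TPM. Col20a1 had 2.07 and 2.01 TPM and Col9a3 1.75 and 2.06 TPM. Col9a3 was detected without its partners in the type IX trimer. Col9a1 was at 0 counts in both libraries, which allows up to 0.0322 TPM in library 1 and 0.0291 in library 2 when a count of 0 is read as up to 3 counts, and Col9a2 had 3 and 8 counts. Col19a1 and Col22a1 were below 0.15 TPM in both libraries.

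Type VI collagen forms beaded microfilaments around cells from alpha 1, alpha 2 and alpha 3 chains. Col6a1 (ENSMUSG00000001119, chromosome 10, 76708792 to 76726168, minus strand) stood at 12.2 and 12.8 TPM (12.5 ± 0.481 TPM) and Col6a2 (ENSMUSG00000020241, chromosome 10, 76595762 to 76623630, minus strand) at 10.4 and 10.5 TPM (10.4 ± 0.120 TPM). The pair kept a ratio of 1.17 in library 1 and 1.22 in library 2. Col6a3, the long alpha 3 chain, stood at 5.41 and 5.16 TPM, which is 0.445 and 0.402 of Col6a1. Of the chains that can stand in for alpha 3, Col6a4 reached 2.42 and 2.48 TPM, Col6a5 0.35 and 0.49 TPM and Col6a6 0.08 and 0.11 TPM. Col6a5 and Col6a6 were the only members with a nonzero posterior SD of the gene count, 0.61 counts in library 2, which measures how uncertainly shared reads were divided. For the other 42 members it was 0 in both libraries.

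Collagens of basement membrane zones outside type IV were led by Col18a1 (ENSMUSG00000001435, chromosome 10, 77052178 to 77166548, minus strand), the heparan sulfate collagen whose C-terminal fragment is endostatin. It stood at 20.3 TPM in library 1 and 13.8 in library 2 (17.0 ± 4.60 TPM), higher in library 1. Its relative Col15a1 stood at 2.27 and 3.14 TPM, higher in library 2. Col7a1, the anchoring fibril collagen of skin and other epithelia, reached 7.68 and 6.41 TPM, while none of 5 keratinocyte markers reached 1 TPM in both libraries, their sum was 0.52 and 0.31 TPM and Krt5 was at 0 counts in both. Col8a2, a network-forming chain, stood at 3.33 and 2.84 TPM. Its partner Col8a1 stood at 0.27 and 0.18 TPM, and Col10a1, the hypertrophic cartilage collagen, was at 0 counts in both libraries. Of the membrane-spanning collagens, Col17a1 stood at 1.51 and 1.71 TPM and Col23a1 at 1.37 and 1.36 TPM. Col13a1 (0.84 and 0.83 TPM) and Col26a1 (0.79 and 0.93 TPM) fell just short of 1 TPM, while Col23a1 and Col5a3 were the lowest members above it. Col25a1 had 0 and 4 counts, and Col28a1 had 16 and 23.

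Gene TPM sums the transcripts of a gene, and for several collagens most of it came from annotated transcripts that do not hold a complete coding sequence. Transcripts were split into full-length coding, partial coding (the annotation marks the coding sequence as incomplete) and non-coding. Full-length thus means only a coding transcript without that mark in GENCODE M21, while the levels rest on models of GENCODE M4. Full-length coding transcripts held 81.8% of collagen TPM in library 1 and 75.6% in library 2. Of the 25 detected genes, 13 had 90% or more of their TPM in such transcripts in both libraries, among them Col1a1, Col3a1, Col4a1, Col4a2, Col6a1, Col6a2 and Col18a1. A further 5 had under 50% in both, namely Col14a1, Col16a1, Col27a1, Col12a1 and Col9a3. The full-length label has limits. Col15a1, which is among the 13, had 1.21 and 2.02 TPM on Col15a1-203, a transcript of 1755 bases from the 3′ part of the gene. Its form of 5172 bases held 1.06 and 1.12 TPM. Col11a2-204, also labelled full-length, had a deposited length of 2090 bases although its M21 coding sequence holds 1736 codons.

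**Figure D3:**
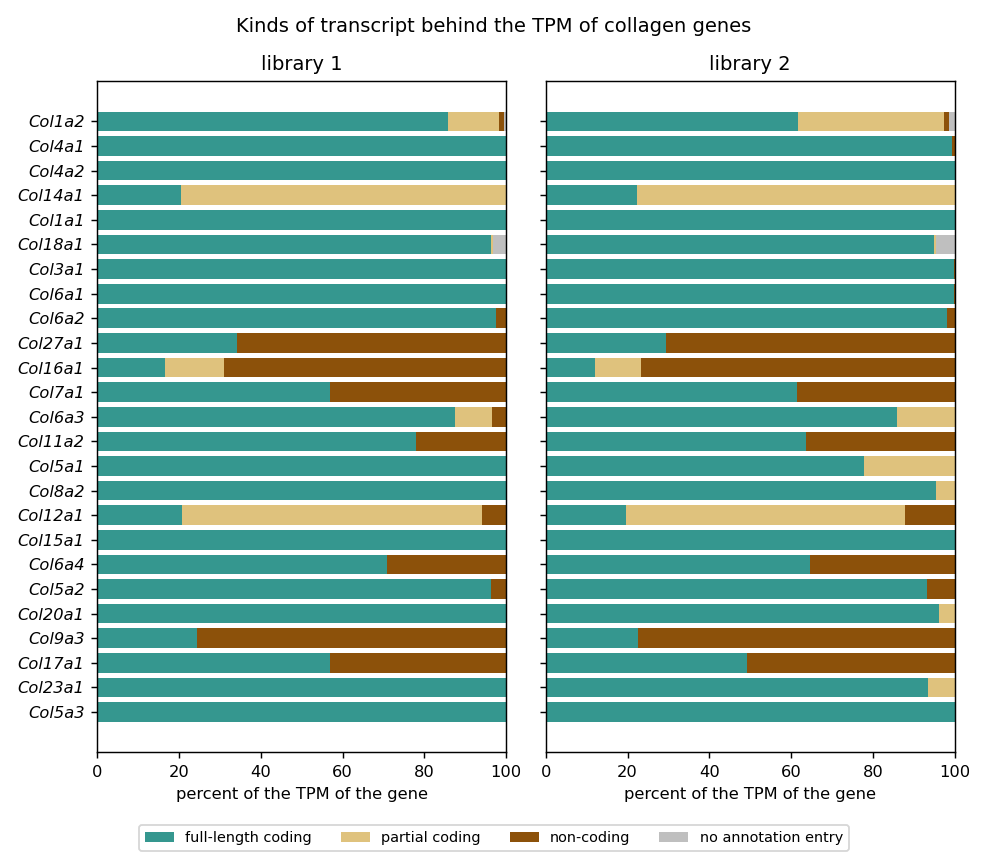
Percent of the TPM of each detected collagen gene (x axis) held by full-length coding, partial coding and non-coding transcripts and by transcripts with no annotation entry, in library 1 (left) and library 2 (right), ordered by mean TPM. Col4a1, Col4a2 and Col1a1 are almost wholly full-length, Col14a1 is mostly partial, and the partial share of Col1a2 is larger in library 2 (35.8%) than in library 1 (12.4%).

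Most of the difference in Col1a2 TPM between libraries lay in a short transcript. Col1a2-205, a partial transcript of 850 bases, begins 679 bases upstream of the full-length Col1a2-201 and has 182 bases outside full-length transcripts. It received 143.8 counts (SD of the estimate 33.8) in library 1 and 678.9 (SD 40.7) in library 2. That was 12.4% of the gene's TPM in library 1 and 35.8% in library 2. The full-length Col1a2-201 stood at 32.4 TPM in library 1 and 33.9 in library 2, so on the TPM scale the libraries were close once the short transcript was left aside. In expected counts Col1a2-201 had 8002 and 9213, so it held the larger part of the extra counts of the gene in library 2. On the log2(TPM + 1) scale the median difference of all detected genes was itself -0.13. On full-length transcripts the ratio of Col1a1 to Col1a2 was 0.689 in library 1 and 0.642 in library 2. On these transcripts fibrillar genes held 34.2% of collagen TPM in library 1 and 38.6% in library 2. Type IV genes held 34.9% and 31.8%. The printed Col1a2 window lies within the body of Col1a2-205. Col1a2-201 begins at 4505493, inside that window and upstream of its RefSeq start. Part of the bases printed as before the start therefore lie within Col1a2-201.

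Col14a1-204, a partial transcript of 2085 bases from the 3′ part of the gene, held 79.5% of Col14a1 TPM in library 1 and 77.7% in library 2. On full-length transcripts Col14a1 stood at 5.32 and 6.73 TPM, and its place among collagens moved from 4 to 9. Its close relative Col12a1 showed the same arrangement, with 73.2% and 68.0% of TPM on the partial Col12a1-204. Full-length Col12a1 transcripts held 0.63 and 0.56 TPM. For Col16a1, Col27a1 and Col9a3 most TPM lay on non-coding transcripts, and full-length transcripts held 1.55 and 0.99, 3.17 and 2.43, and 0.43 and 0.46 TPM. Full-length transcripts held 4.38 and 3.94 TPM of Col7a1 and 3.59 and 3.74 TPM of Col11a2. Col7a1-207, a non-coding transcript of 245 bases, held 1.29 TPM from 2 counts in library 1 and 0 in library 2. By full-length TPM the order of the 3 highest collagens became Col4a1 (41.7 ± 4.14), Col4a2 (34.6 ± 3.10) and Col1a2 (33.1 ± 1.09), of which Col4a2 and Col1a2 differed by less than the SD of Col4a2. For Col5a1, a partial transcript held 0 TPM in library 1 and 1.12 in library 2, and on full-length transcripts the ratio of Col5a1 to Col5a2 was 2.30 and 1.93. Full-length transcripts were set apart after seeing the data.

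Col18a1 has alternative starts that give protein forms with different N-terminal ends. The transcript from the upstream start, Col18a1-202, which begins at 77166548 within the printed window, held 95.8% of Col18a1 TPM in library 1 and 94.6% in library 2. Transcripts from the downstream start were nearly absent, with 0.39% and 0.29% on Col18a1-203 and 0 counts on Col18a1-201. The form from the upstream start thus held most of the Col18a1 TPM in both libraries.

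The libraries were then compared gene by gene by an exact two-sided binomial test on counts scaled by TMM, a trimmed mean of log ratios, with Benjamini-Hochberg adjustment over all genes tested and a threshold of 0.05. With 1 library on each side it compares these libraries only and has no replicate check. Of 38 members with 10 or more counts, 18 differed beyond counting error, beside 50.7% of all 17547 genes tested. Of these, 12 were higher in library 2, beside 24.1% of all genes, and 6 were higher in library 1, beside 26.6%. Among genes with 500 or more counts, 13 of 23 members differed, beside 65.7% of all such genes, with 9 higher in library 2 (beside 28.3%), 4 higher in library 1 (beside 37.4%) and 0 past a 2-fold limit (beside 1.53%). With scaling by total gene counts the split was 11 higher in library 2 and 8 higher in library 1. With a trend on GC content removed, an alternative chosen after seeing the data, 14 of the 18 had a ratio above 0 and 4 below. The libraries' log2 ratios fell with GC content, with a correlation of -0.25 over 37 members and -0.25 over 15761 genes, which share the same libraries.

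Of the 8 detected fibrillar genes, 5 were higher in library 2 beyond counting error (Col1a1, Col1a2, Col3a1, Col5a2 and Col11a2), beside 24.1% of all genes. None, or 0, were higher in library 1, beside 26.6%. Among genes with 500 or more counts in total, a depth that all 8 reach, the shares were 28.3% and 37.4%. The other 3 had log2 ratios of 0.03 (Col5a1), 0.10 (Col5a3) and -0.09 (Col27a1), and the median of the 8 was 0.18. With total gene counts the split became 4 and 1. Both detected type IV genes were higher in library 1. Among the 15 other detected genes 4 were higher in library 2 and 2 in library 1, with a median of 0.06, and these shares are near or below the same 24.1% and 26.6%. Over the 42 members with a count the median log2 ratio was 0.11, beside 0.01 over 21403 genes. It was 0.06 over the members with 10 counts in each library, and on log2(TPM + 1) it was 0.01, beside -0.04 over the 21403 genes. The median absolute log2 ratio of detected members was 0.12, beside 0.20 over all 12500 detected genes.

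Col3a1 showed the largest difference among members of 10 TPM or more. It had 2931 counts in library 1 and 5034 in library 2, a scaled ratio of 1.70 (95% exact binomial interval 1.62 to 1.78, counting error only) and an adjusted p of 1.53e-116 by the exact binomial test. Its log2 ratio was 0.76, and 0.79 with the GC trend removed. Col14a1 had 3459 and 4548 counts (log2 ratio 0.38) and Col1a2 8172 and 9948 (log2 ratio 0.27), both higher in library 2. Col6a1 and Col6a2 were higher in library 2 by log2 ratios of 0.19 and 0.14. Col1a1, with 6135 and 6585 counts, was the weakest of these at a log2 ratio of 0.08 (adjusted p 0.00297 by the exact binomial test). That call was lost with total gene counts (adjusted p 0.0699 by the same exact test), and on log2(TPM + 1) the difference was -0.03.

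Col18a1 was the main member on the other side, with 4618 counts in library 1 and 3417 in library 2. Its log2 ratio was -0.45 (adjusted p 3.44e-43 by the exact binomial test) and -0.24 with the GC trend removed. Col4a1 had 13755 and 13129 counts and Col4a2 11050 and 10686, both higher in library 1 by small log2 ratios of -0.09 and -0.07. With the GC trend removed both reversed, to 0.05 and 0.14. The direction for both thus depended on that setting.

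Only Col19a1, a fibril-associated collagen, passed both the test and a 2-fold limit, beside 5.72% of all genes tested. It had 13 counts in library 1 and 31 in library 2, a ratio of 2.35 (95% interval 1.20 to 4.90) with an adjusted p of 0.0212 by the exact binomial test. At these counts its level was 0.06 and 0.13 TPM. The non-coding Col19a1-203 received 4.43 counts in library 1 and 17.19 in library 2. The full-length Col19a1-202 received 8.57 and 13.81, and full-length transcripts stood at 0.04 and 0.06 TPM.

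**Figure D4:**
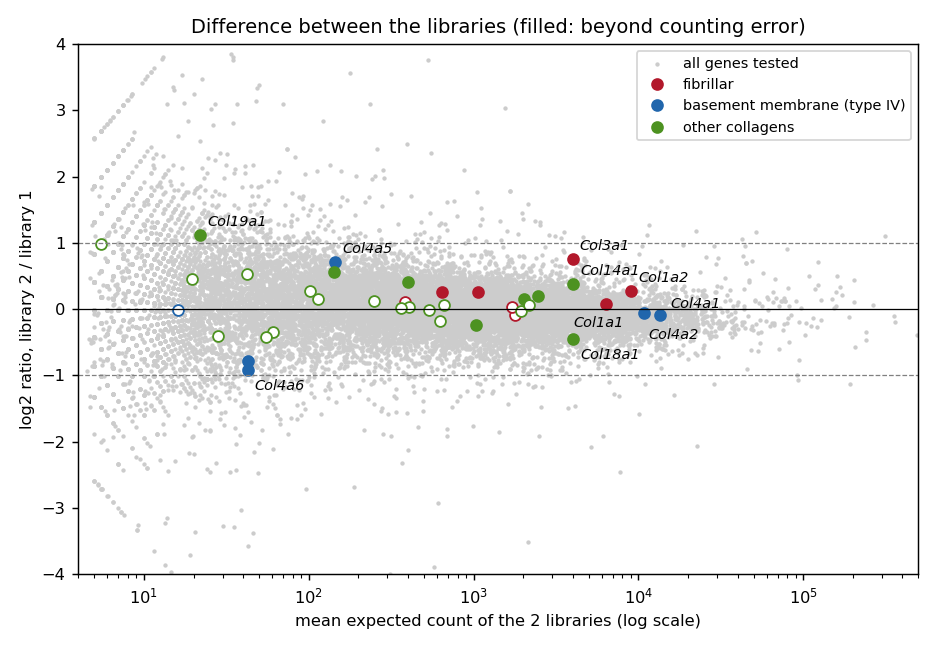
Log2 ratio of library 2 to library 1 (y axis) against the mean expected count (log x axis) for all genes tested in grey and for collagen genes in colour, filled where the difference passed the binomial test; dashed lines mark 2-fold and 49 genes lie outside the plotted range. Col3a1 lies highest among abundant collagens at 0.76, Col18a1 lowest at -0.45, and Col4a1 and Col4a2 lie near 0.

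Markers of other cell types also differed between the libraries, and their counts stand beside 24.1% of all genes higher in library 2 and 26.6% higher in library 1. All 5 spleen patterning genes were higher in library 1, with sums of 204 and 155 TPM and a median log2 ratio of -0.61. The 5 mesothelium genes, of which Wt1 also stands in the spleen patterning list, summed to 45.5 TPM in library 1 and 27.1 in library 2, with 4 higher in library 1 and 0 in library 2. Of 6 adipose genes, 5 were higher in library 2 and 0 in library 1, 3 of them past 2-fold, with sums of 52.8 and 112 TPM. Of 5 smooth muscle genes, 4 were higher in library 1, and their sums were 372 and 301 TPM. The 8 fibroblastic stroma genes were mixed, with 3 higher in library 2, 2 in library 1 and sums of 1473 and 1111 TPM. Among 6 endothelial genes, 4 were higher in library 2 and 2 in library 1, with sums of 665 and 561 TPM. Of 5 kidney tubule genes, none reached 1 TPM in both libraries, but 3 were higher in library 2, all 3 past 2-fold, and the sum was 0.65 TPM in library 1 and 3.01 in library 2. Slc34a1 had 47 and 223 counts, Umod 3 and 66 and Kap 0 and 15. The part of these cell types in the collagen differences was not tested.

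Genes that act in making collagen were also measured, and detection counts here stand beside 53.9% of all protein-coding genes at 1 TPM. Of 21 genes for synthesis and folding, 18 reached 1 TPM in both libraries, with 6 higher in library 2 and 11 in library 1 beyond counting error, beside the same 24.1% and 26.6% of all genes. The highest were Sparc, a collagen-binding matrix protein, at 624 and 466 TPM, and Colgalt1, which adds galactose to hydroxylysine, at 146 and 120 TPM. Of the Sparc TPM, full-length transcripts held 104 and 114. Of 13 genes for processing and crosslinking, 9 were detected, with 2 higher in library 2 and 6 in library 1. Pcolce, which enhances removal of the C-propeptide, led with 78.4 and 60.4 TPM, and the crosslinking oxidase Loxl1 followed with 23.7 and 26.4 TPM.

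Partners and receptors of the collagens were also detected. Their counts at 1 TPM stand beside the same 53.9% of all protein-coding genes. Counts of differing genes below stand beside the same 24.1% and 26.6% of all genes. Of 12 fibril-associated proteoglycans and partners, 9 reached 1 TPM in both libraries, with 5 higher in library 2 and 2 in library 1. They were led by the proteoglycan biglycan (Bgn, 248 and 280 TPM) and fibronectin (Fn1, 67.8 and 50.9 TPM). Of 15 basement membrane partners, 12 were detected, with 1 higher in library 2 and 6 in library 1, led by the laminin chain Lamb2 (37.9 and 36.3 TPM) and nidogen 1 (Nid1, 32.5 and 26.8 TPM). Of 12 collagen receptors, 11 were detected, with 6 higher in library 2 and 2 in library 1. Ddr1, a receptor tyrosine kinase for collagen, stood at 34.8 and 24.3 TPM and the integrin chain Itgb1 at 14.8 and 16.9 TPM. Itga2, the alpha chain of a collagen-binding integrin of platelets, was the only gene of the pathway lists past 2-fold, at 83 and 172 counts (log2 ratio 1.02). Of 15 genes for breakdown and its inhibitors, 10 were detected, with 3 higher in each library, a share below that of all genes, led by the protease inhibitor Timp2 (67.8 and 61.3 TPM) and the dipeptidase Pepd (43.8 and 39.4 TPM).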

How the data were processed

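RNA from 2 mouse spleen samples was sequenced, and the deposited gene and transcript tables, 1 per library, were used. They rest on the mm10 assembly (GRCm38) with GENCODE annotation M4 and on alignments to the transcriptome, per the deposited notes. For the aligner, the quantification tool and the use of strand in counting, no name or setting was given in the sources used here. Expected counts, as deposited, are estimated reads per gene or transcript and were not normalized by the authors. The deposited TPM and posterior mean TPM values are corrected for length and scaled to a fixed total. The deposited FPKM values are corrected for length and library size. The deposited percent values give the share of a gene's TPM that each transcript holds. Spike-ins and entries that are not genes were left out, and the contig and junction lists on mm9 were not used here.

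Symbols, positions, exons and transcript kinds were taken by unversioned identifier from GENCODE M21 (42462 of 43346 genes matched), and promoter windows from RefSeq. Of 201 transcripts of the members, 198 had an annotation entry. Library sizes were scaled by TMM in edgeR 4.0.16 under R 4.3.3 (factors 1.01 and 0.990). Log2 ratios used a prior count of 2. Folds and intervals of single genes used none. The binomial test took expected counts rounded to whole numbers, for genes with 10 or more in total. It was checked on counts simulated with counting error and set fold changes only. That check does not cover any further variation between libraries. DESeq2 1.42.0 size factors and other alternatives are given in the closing section. Members of 10 TPM or more, those past 2-fold and those at 0 counts in both libraries were named with values, and the others by values or ranges. Pathway lists name the 2 genes of highest mean TPM and any past 2-fold. Members, groups and lists were chosen with earlier results of these data known. With 1 library on each side, intervals cover counting error only. They may be too narrow even for that, because reads that carry no molecular identifier may be copies of a single molecule. Python 3.11.15 with pandas 2.3.3, numpy 2.4.6, scipy 1.17.1, statsmodels 0.14.6 and matplotlib 3.10.9 did the rest.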

Additional observations from a re-analysis of the deposited data

How the results depend on the processing

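The number of detected collagens was 25 without either library and with FPKM, 28 at 0.5 TPM, 20 at 2 TPM, 27 by posterior mean TPM and 21 on full-length transcripts. The count of 18 members beyond counting error was 18 with DESeq2 size factors, with no filter and with 50 counts in total, and 19 with total gene counts, while the 2-fold count went from 1 to 0 when 50 counts in total were required, which removes Col19a1. Several values moved by more than the SD between libraries. The collagen share of TPM was 0.141% of expected counts, 0.0443% without haemoglobin and acinar genes in the denominator, and 0.0233% on full-length transcripts. Not dividing by length gave 34.6% for type IV and 30.2% for the other collagens, and ratios of 0.706 for Col1a1 to Col1a2, 1.24 for Col4a1 to Col4a2, 0.883 for Col6a3 to Col6a1 and 2.68 for Col5a1 to Col5a2. Full-length transcripts gave 33.4% for type IV, 30.3% for the others, and ratios of 0.665 for Col1a1 to Col1a2, 0.367 for Col6a3 to Col6a1 and 2.11 for Col5a1 to Col5a2, and posterior mean TPM gave 2.14 for this last pair. The median log2 ratio of members was 0.112 with TMM and with DESeq2 size factors, 0.082 with total gene counts, 0.014 on log2(TPM + 1), 0.058 with 10 counts in each library and 0.083 with 50. Over the 37 members with 10 counts in each library, removing the GC trend moved it from 0.058 to 0.215. The same step reversed Col4a1 (0.050) and Col4a2 (0.14). On log2(TPM + 1) Col1a1 reversed to -0.033, as it did on full-length transcripts alone (-0.033). On that scale the median difference of all detected genes was -0.13. The full-length and GC alternatives were chosen after seeing the data. Leaving out either library gave ranges of 0.0289 to 0.0302% for the collagen share, 32.3 to 39.4% fibrillar, 24.3 to 28.8% type IV and 36.4 to 38.9% other. Ratios then ranged from 0.395 to 0.591 for Col1a1 to Col1a2, 0.511 to 0.819 for Col3a1 to Col1a1, 1.20 to 1.21 for Col4a1 to Col4a2, 1.17 to 1.22 for Col6a1 to Col6a2, 0.402 to 0.445 for Col6a3 to Col6a1 and 2.22 to 2.31 for Col5a1 to Col5a2. The causes were not tested. No paired analysis was possible because the samples form a single group. Of the 19 members below 1 TPM, 6 had under 10 counts in total, where depth limits the values most. Others of the 19 had more counts, such as Col4a5 with 109 and 181, and lay below the threshold chosen.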
